A study of Mus musculus with 8 samples.

Results

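The thioredoxin and peroxiredoxin genes are Txn1, Txn2, Txnrd1, Txnip, Prdx1, Prdx2, Prdx3, Prdx4, Prdx5 and Prdx6. They were chosen by symbol, as the rows of the deposited count and RPKM tables that carry one of these names, and all 10 were found among the 25078 genes of the tables. All 10 also passed a filter on low counts that left 12428 genes, and the lowest count of any of them in a library was 554 (Prdx4 in WT CD4 replicate 1). Messenger RNA was measured in donor T cells sorted from the spleen of BALB/c mice (WT by the sample titles) on day 6 after lethal irradiation and hematopoietic cell transplantation (HCT), a model of graft-versus-host disease. All recipients received bone marrow that was depleted of T cells and came from wild-type C57BL/6 mice, together with T cells of C57BL/6 donors. The donors were wild type (WT) or STAT3KO. In STAT3KO donors a Cre recombinase under Cd4 regulatory sequences targets a floxed part of Stat3 in T cells that have expressed Cd4, CD8 T cells included. The sort kept CD4 apart from CD8 T cells, so that 4 groups of 2 replicates each arose, named here by genotype and cell type (such as WT CD4). Per the study's methods, each library holds pooled cells of several recipients, so the spread between replicates is that between pools, and the age of the mice was not given in the sources used here.

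Thioredoxins are small proteins that reduce disulfide bonds of other proteins through a pair of cysteines and are themselves returned to the reduced state by thioredoxin reductase at the expense of NADPH. Peroxiredoxins remove hydrogen peroxide, and most of them depend on thioredoxin for the electrons. In T cells this system supplies electrons to ribonucleotide reductase during growth and keeps peroxide made by the mitochondria and by receptor signalling in check.

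Depth was even, with 20171396 to 23282757 counts per library, and the 10 genes together held 0.175% to 0.212% of the counts of a library. Stat3, the targeted gene, was measured at 436 and 428 CPM (counts relative to the library's TMM-scaled total) in WT CD4 and at 138 and 141 CPM in STAT3KO CD4 libraries. The WT CD8 libraries held 431 and 436 CPM and those of STAT3KO CD8 120 and 143 CPM. Stat3 thus fell by 1.63 (CD4) and 1.72 (CD8) on the log2 scale (adjusted p 0.000753 and 0.00536 by edgeR). Whether the remaining Stat3 counts come from cells without deletion or from transcript outside the floxed part was not tested. T cell genes stood at 3251 to 4117 CPM in sum (by column total), and Cd4 and Cd8a separated the sorts. The 2 replicate numbers differed, however. Replicate 2 held more Cd4 transcripts in CD8 T cells (6.61 and 8.16 against 1.04 and 1.64 CPM) and more Csf1r, a macrophage receptor (11.8 to 18.7 against 0.558 to 2.51 CPM). Summed over 5 macrophage and monocyte genes, the level was 18.0 and 48.8 CPM in WT against 15.5 and 55.7 in STAT3KO libraries of the CD4 sort, and 39.8 and 103.5 in WT against 49.8 and 83.7 in STAT3KO libraries of the CD8 sort (replicates 1 and 2). The part of these cells in the results below was not tested. Among 7 erythroid genes, 4 globin genes were listed at 0 in every library, while Alas2 reached 4.72 CPM. The sum stayed at 0.843 to 7.43 CPM and was higher in replicate 2 of every group. It holds no globin counts, so it does not measure all red cell RNA. The reason for the zeros was not tested. Neutrophil genes summed to 2.36 to 15.7 CPM and platelet genes to 0.995 to 8.72 CPM. The dendritic cell list summed to 13.2 to 15.7 CPM in libraries of the CD4 sort. In the CD8 sort it summed to 272 and 239 CPM in WT and to 207 and 160 CPM in STAT3KO libraries. Nearly all of it was Itgax, while Flt3 and Xcr1 reached no more than 0.0859 CPM and Siglech was listed at 0 throughout. The source of Itgax was not tested. In bulk RNA, fewer cells of a type and less RNA per cell cannot be told apart.

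Promoter sequence was available for 9 of the 10 genes (11 start sites, RefSeq, GRCm38.p6). The 250 bases before each start were searched on both strands for the STAT element TTCNNNGAA, the antioxidant response element core TGACNNNGC, the E-box CACGTG and the carbohydrate response element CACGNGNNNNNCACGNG. The last of these can hold copies of the E-box. Shown here are the promoters of Txn1, which had the largest fitted difference between genotypes in CD4 T cells, of the genes Txn2 and Txnrd1 with a STAT element, and of Txnip. Capitals mark a motif, and each sequence is written 5′ to 3′ on the strand of the gene.
Txn1 (chr4:57956412-57956661, minus strand): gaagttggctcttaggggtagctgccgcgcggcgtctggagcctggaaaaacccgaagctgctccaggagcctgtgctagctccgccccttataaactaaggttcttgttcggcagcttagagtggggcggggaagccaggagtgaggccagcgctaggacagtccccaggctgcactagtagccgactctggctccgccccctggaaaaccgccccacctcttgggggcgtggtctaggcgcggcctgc
Txn2 (chr15:77928995-77929244, minus strand): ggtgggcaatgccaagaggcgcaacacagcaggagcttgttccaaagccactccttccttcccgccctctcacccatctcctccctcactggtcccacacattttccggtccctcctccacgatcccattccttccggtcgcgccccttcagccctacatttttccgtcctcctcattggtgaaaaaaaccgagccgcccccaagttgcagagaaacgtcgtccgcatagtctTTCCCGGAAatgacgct
Txnrd1, a second start (chr10:82858956-82859205, plus strand): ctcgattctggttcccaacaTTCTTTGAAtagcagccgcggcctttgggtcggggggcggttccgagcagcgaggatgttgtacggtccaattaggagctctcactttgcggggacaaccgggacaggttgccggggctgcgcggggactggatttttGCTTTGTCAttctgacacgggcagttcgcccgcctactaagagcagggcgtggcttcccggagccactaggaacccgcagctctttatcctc
Txnip (chr3:96557707-96557956, plus strand): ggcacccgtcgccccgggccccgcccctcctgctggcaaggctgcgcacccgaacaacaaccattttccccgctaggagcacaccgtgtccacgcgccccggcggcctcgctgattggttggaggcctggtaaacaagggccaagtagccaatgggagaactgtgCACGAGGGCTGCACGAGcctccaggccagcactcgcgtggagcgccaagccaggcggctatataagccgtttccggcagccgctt

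No motif of the 4 was found in the window of Txn1. The window of Txn2 holds TTCCCGGAA, whose first base lies 17 bases before the start, and 7.02% of all 32851 promoters hold a STAT element in the same window. At the second start of Txnrd1 the capitals mark TTCTTTGAA and GCTTTGTCA, the latter being the antioxidant core read on the other strand (in 10.2% of promoters). Another start of Txnrd1 holds a further STAT element, TTCCAGGAA. The window of Txnip holds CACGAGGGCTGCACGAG, whose first base lies 85 bases before the start. This pattern was found in 15 of 32851 promoters (0.0457%), and it is the kind of element through which glucose-sensing factors of the MondoA family act. Prdx1 holds the antioxidant core as GCTGAGTCA and Prdx4 the E-box (in 6.02% of promoters), while Prdx2, Prdx3 and Prdx5 hold none of the 4. A match describes these letters only and is not a binding site shown by these data.

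The levels per length spanned about an order of magnitude. Txnip, the inhibitor that binds thioredoxin and also restrains glucose uptake, had the highest RPKM (reads per kilobase of exon, scaled to the size of the library), with a mean of 312 over the 8 libraries and a range of 220.4 to 434. It ranked between 88 and 169 among all genes by the mean of a group. Txn1, the cytosolic thioredoxin, followed at a mean of 196 RPKM (117 to 259.8) and stood below Txnip in 7 of 8 libraries. Prdx1, the main cytosolic peroxiredoxin, had 142 RPKM (115 to 169) and stood below Txn1 in all 8 libraries. Prdx3 and Txn2, the peroxiredoxin and the thioredoxin of mitochondria, had 74.1 and 71.5 RPKM, and each was the higher of the pair in 4 libraries, so their order is not resolved. Prdx5, Prdx2 and Prdx6 had 56.7, 52.6 and 50.8 RPKM with overlapping ranges. Prdx4, the peroxiredoxin of the endoplasmic reticulum, had 41.5 RPKM (27.9 to 58.2). Txnrd1, the cytosolic reductase, had the lowest mean of the 10 at 32.8 RPKM (24.8 to 43.8), and Prdx4 stood above it in 7 of 8 libraries.

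**Figure D1:**
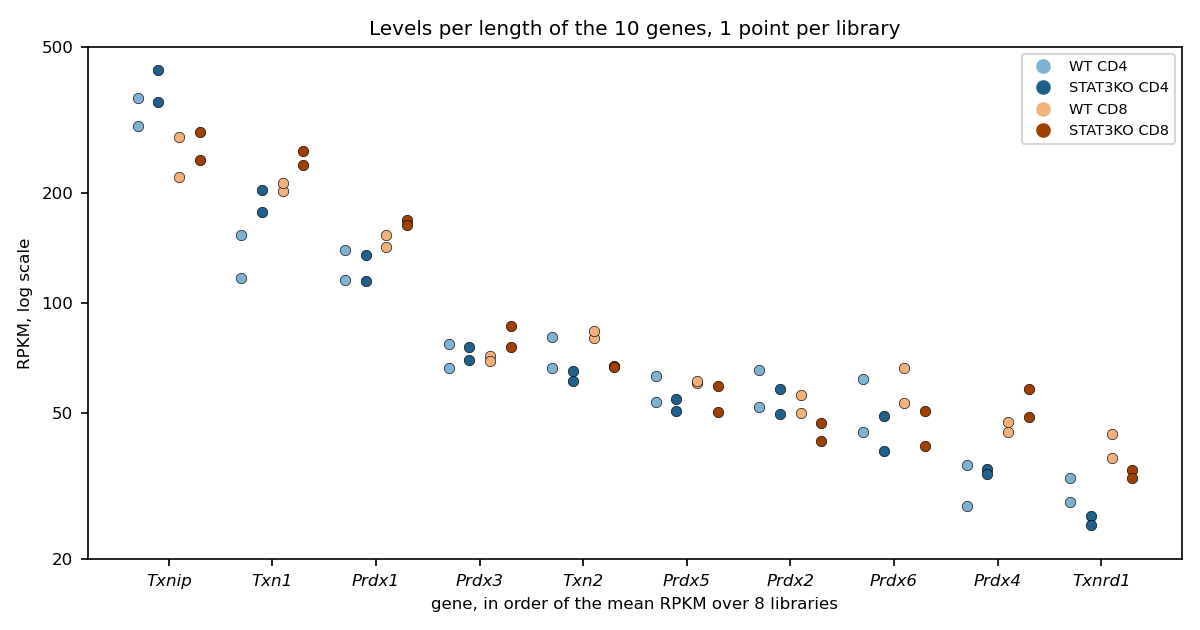
RPKM on a log scale (y axis) of the 10 genes (x axis, in order of their mean over 8 libraries), 1 point per library with colours for the 4 groups. Txnip and Txn1 lie closest in CD8 T cells, Prdx3 and Txn2 overlap, and Txnrd1 has the lowest mean, with a range of 24.8 to 43.8 RPKM that overlaps that of Prdx4.

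The first comparison asked how the loss of STAT3 bears on these genes in each T cell type. None of the 10 genes passed the edgeR quasi-likelihood test (adjusted p under 0.05) in CD4 T cells, where 11.6% of all genes tested did, and none in CD8 T cells, where 2.07% did. The 2 genotypes did not overlap for 3 of the 10 genes in CD4 T cells (53.5% of all genes) and for 9 of 10 in CD8 T cells (49.7% of all genes). The median log2 fold change of the 10 genes was -0.05 (CD4) and -0.02 (CD8), beside 0.02 and -0.01 for all genes tested. The replicate numbers of the titles moved the libraries together (correlations of 0.424 to 0.671 between groups), and with the replicate number as a block 3 of the 10 passed in each cell type, beside 30.1% of all genes in CD4 and 18.2% in CD8 T cells.

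Txn1 (chromosome 4, 57943373 to 57956411, minus strand, mm10) had the largest fitted difference of the 10 genes between genotypes in CD4 T cells. It was measured at 124 and 160.1 CPM in WT against 188 and 219 in STAT3KO libraries of the CD4 sort, and 213 and 228 in WT against 252 and 279.6 in STAT3KO libraries of the CD8 sort. Both STAT3KO libraries lay above both WT libraries in each cell type, and both WT CD4 libraries lay below the other six. In CD4 T cells the group means were 142 ± 25.5 and 204 ± 21.6 CPM (SD, n = 2) and the log2 fold change was 0.52 (SE 0.15, 95% interval 0.17 to 0.86, adjusted p 0.0637 by edgeR). It was 0.60 within replicate 1 and 0.45 within replicate 2, and with the block the edgeR adjusted p was 0.00124. DESeq2 also called Txn1 in CD4 T cells (adjusted p 0.0129, beside 14.7% of all genes). One library decided the value by edgeR, since the log2 fold change was 0.71 without WT CD4 replicate 2 (adjusted p 0.0468) and 0.32 without WT CD4 replicate 1 (adjusted p 0.226). It was 0.41 without STAT3KO CD4 replicate 2 (adjusted p 0.285 by edgeR). In CD8 T cells the log2 fold change was 0.27 (SE 0.15, 95% interval -0.07 to 0.62, adjusted p 0.373 by edgeR, and 0.0491 with the block).

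Txnrd1 (chromosome 10, 82833951 to 82897724, plus strand) encodes the selenoprotein that reduces thioredoxin in the cytosol. Its levels were 135 and 114 CPM in WT against 106 and 102 in STAT3KO libraries of the CD4 sort, and 176 and 154 in WT against 142 and 137 in STAT3KO libraries of the CD8 sort. Here the STAT3KO libraries lay below the WT libraries in both cell types. The log2 fold change was -0.25 in CD4 (SE 0.12, adjusted p 0.209 by edgeR, and 0.0404 with the block) and -0.25 in CD8 T cells (SE 0.12, adjusted p 0.2995 by edgeR, and 0.0589 with the block). The ratio of Txn1 to Txnrd1 within a library, from RPKM, was 3.52 and 5.37 in WT against 6.77 and 8.18 in STAT3KO libraries of the CD4 sort, and 4.62 and 5.64 in WT against 6.80 and 7.81 in STAT3KO libraries of the CD8 sort. All 4 STAT3KO libraries thus lay above all 4 WT libraries. This ratio was formed after the values of both genes were seen and is given as a description with no test.

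Txn2 (chromosome 15, 77915051 to 77928994, minus strand) was measured at 85.8 and 103 CPM in WT against 79.6 and 86.0 in STAT3KO libraries of the CD4 sort, and 103 and 109.6 in WT against 87.0 and 87.6 in STAT3KO libraries of the CD8 sort. The genotypes overlapped in CD4 T cells by a margin under 1 CPM and did not overlap in CD8 T cells. The log2 fold change was -0.19 in CD4 (SE 0.11, adjusted p 0.3375 by edgeR) and -0.28 in CD8 T cells (SE 0.11, 95% interval -0.55 to -0.02, adjusted p 0.230 by edgeR, and 0.0406 with the block).

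Txnip (chromosome 3, 96557957 to 96561857, plus strand) had 860.4 and 1006 CPM in WT against 1229.9 and 1018 in STAT3KO libraries of the CD4 sort, and 617.7 and 809.8 in WT against 827 and 706 in STAT3KO libraries of the CD8 sort. The replicates of a group lay far apart, and replicate 2 was the higher one in WT and the lower one in STAT3KO T cells of both types. In CD4 T cells the genotypes did not overlap, but the difference was 0.52 within replicate 1 and 0.02 within replicate 2 on the log2 scale (pooled 0.27, SE 0.17, adjusted p 0.357 by edgeR). In CD8 T cells the genotypes overlapped (log2 fold change 0.10 with SE 0.17, adjusted p 0.809 by edgeR).

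**Figure D2:**
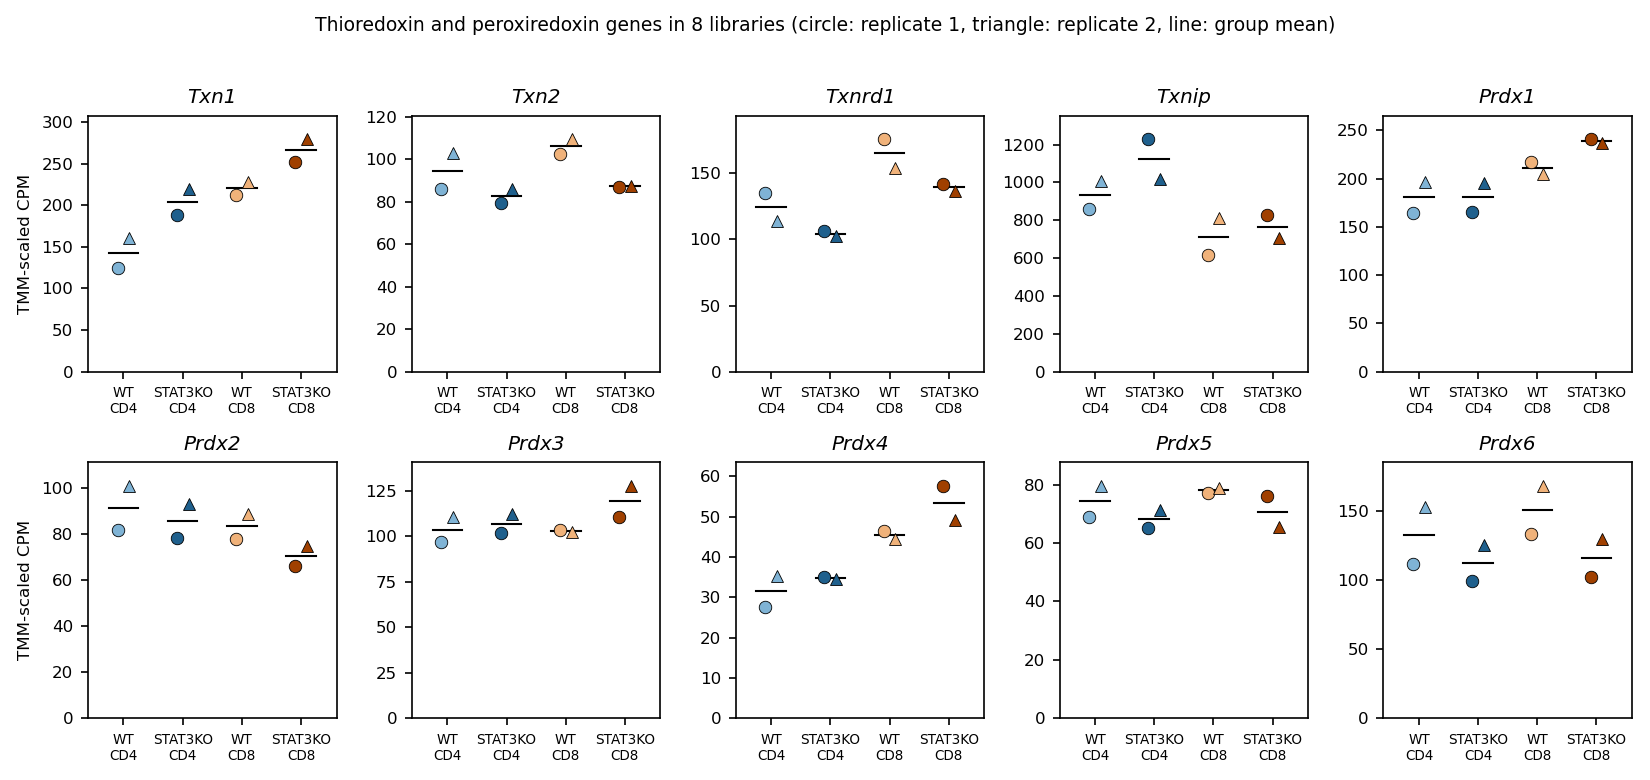
TMM-scaled CPM (y axis, from 0) of each of the 10 genes in the 4 groups (x axis), with replicate 1 as a circle, replicate 2 as a triangle and the group mean as a line. Txn1 is lowest in WT CD4 (124 and 160.1 CPM) and highest in STAT3KO CD8 T cells (252 and 279.6 CPM), and Prdx6 is higher in replicate 2 of every group.

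Of the cytosolic peroxiredoxins, Prdx1 (chromosome 4, 116685599 to 116700000, plus strand) had nearly the same level in both genotypes of CD4 T cells, at 165 and 196 CPM in WT and 165 and 196 CPM in STAT3KO libraries. Its 95% interval there was -0.30 to 0.30 on the log2 scale, so a change beyond about 1.2-fold in either direction lies outside it. In CD8 T cells it was at 218 and 205 CPM in WT and 241 and 237 CPM in STAT3KO libraries, which did not overlap (log2 fold change 0.18 with SE 0.13, adjusted p 0.519 by edgeR). Prdx2 (chromosome 8, 84969622 to 84974810, plus strand), which is abundant in red cells, had 81.6 and 100.9 CPM in WT against 78.2 and 92.9 in STAT3KO libraries of the CD4 sort, and 77.9 and 88.6 in WT against 65.9 and 74.8 in STAT3KO libraries of the CD8 sort. Replicate 2 was the higher one in each group, and only the CD8 genotypes did not overlap (log2 fold change -0.24 with SE 0.15, adjusted p 0.433 by edgeR).

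Prdx6 (chromosome 1, 161240112 to 161251210, minus strand), the member with a single active cysteine that uses glutathione rather than thioredoxin, lay higher in replicate 2 of every group. It was at 112 and 153 CPM in WT against 99.4 and 126 in STAT3KO libraries of the CD4 sort, and 133 and 168 in WT against 102 and 129 in STAT3KO libraries of the CD8 sort. Within each replicate number the STAT3KO library lay below the WT library of the same cell type. The log2 fold change was -0.23 in CD4 (SE 0.21, adjusted p 0.527 by edgeR) and -0.38 in CD8 T cells (SE 0.21, adjusted p 0.371 by edgeR). With the block the same differences had SE 0.074 and 0.074, and the edgeR adjusted p was 0.0417 and 0.00726. Without the block, leaving out WT CD4 replicate 1 or replicate 2 gave -0.47 or -0.00075 in CD4 T cells, and the CD8 value lay between -0.57 (without STAT3KO CD8 replicate 2) and -0.21 (without WT CD8 replicate 2).

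Among the peroxiredoxins of organelles, Prdx3 (chromosome 19, 60864066 to 60874538, minus strand) lay between 96.7 and 112 CPM in the CD4 libraries and WT CD8 libraries. In STAT3KO CD8 libraries it was at 110.5 and 128 CPM, above WT CD8 (log2 fold change 0.21 with SE 0.12, adjusted p 0.377 by edgeR). Prdx4 (chromosome X, 155323918 to 155338460, minus strand) had 27.6 and 35.3 CPM in WT against 35.0 and 34.5 in STAT3KO libraries of the CD4 sort, and 46.6 and 44.4 in WT against 57.7 and 49.1 in STAT3KO libraries of the CD8 sort. Between genotypes its differences did not pass (log2 fold change 0.14 for CD4 and 0.23 for CD8, adjusted p 0.586 and 0.433 by edgeR). Prdx5 (chromosome 19, 6906697 to 6910106, minus strand), found in mitochondria, peroxisomes and the cytosol, varied little, from 65.2 CPM in STAT3KO CD4 replicate 1 to 79.7 CPM in WT CD4 replicate 2. Its log2 fold change was -0.12 for CD4 and -0.14 for CD8 (adjusted p 0.572 and 0.591 by edgeR).

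**Figure D3:**
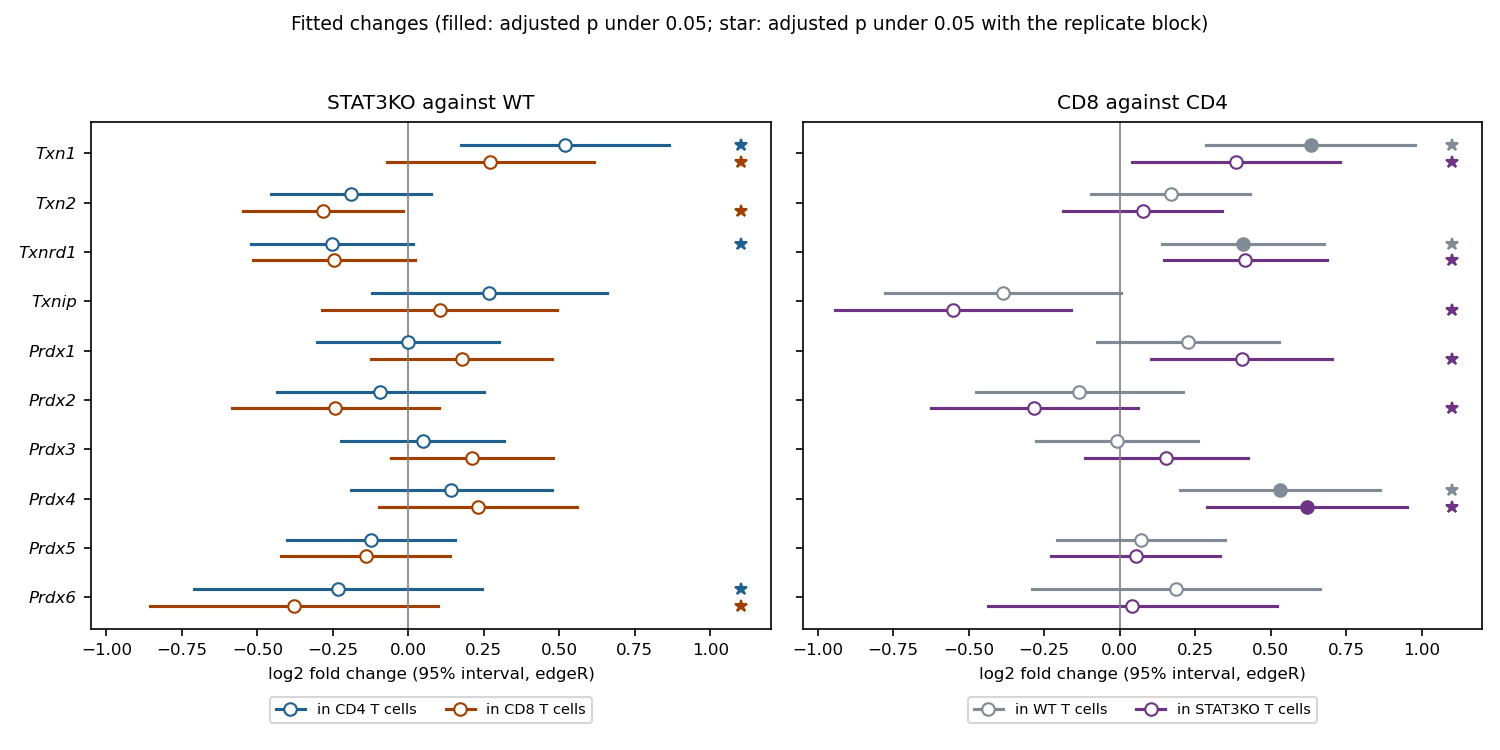
Log2 fold changes with 95% intervals (x axis) of the 10 genes (y axis) for STAT3KO against WT (left) and CD8 against CD4 (right), filled where the edgeR adjusted p was under 0.05 and starred where it was so with the replicate block. No point on the left is filled, and on the right Txn1, Txnrd1 and Prdx4 are filled in WT and Prdx4 in STAT3KO T cells.

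Whether the STAT3KO effect differed between CD8 and CD4 T cells was tested as an interaction. None of the 10 genes passed it, at edgeR adjusted p of 0.945 or more, and none had an unadjusted p under 0.05. Over all 12428 genes edgeR called 0, while 982 genes (7.90%) had an unadjusted p under 0.05, DESeq2 called 175 (1.41%) and the block 403 (3.24%). The difference for Txn1 was -0.25 on the log2 scale (CD8 minus CD4, 95% interval -0.73 to 0.24) and that for Prdx1 was 0.18 (95% interval -0.25 to 0.60). These intervals leave room for differences as large as the effects themselves.

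The next comparison was of CD8 with CD4 T cells of the same genotype. In WT T cells 3 of the 10 genes rose (23.8% of all genes tested passed in either direction and 12.2% rose). Txn1 rose by 0.63 on the log2 scale (SE 0.15, 95% interval 0.29 to 0.98, adjusted p 0.0191 by edgeR), a 1.55-fold higher mean in CD8 T cells. Prdx4 rose by 0.53 (SE 0.14, adjusted p 0.0322 by edgeR) and Txnrd1 by 0.41 (SE 0.12, adjusted p 0.0388 by edgeR), and the CD8 libraries of each lay above both CD4 libraries. Txnip pointed the other way without passing (log2 fold change -0.39 with SE 0.17, adjusted p 0.141 by edgeR), with both CD8 libraries below both CD4 libraries. In all, 5 of 10 genes did not overlap between the cell types (59.3% of all genes). The 3 calls were lost when only the 4 WT libraries were fitted (edgeR adjusted p 0.0535 to 0.103, beside 15.9% of all genes called), and none of the 10 genes was called without WT CD8 replicate 1 or WT CD8 replicate 2. A single gene was called without WT CD4 replicate 1 (Txnrd1, while Prdx4 stood at 0.35), STAT3KO CD4 replicate 1 or STAT3KO CD4 replicate 2 (Txn1 in both).

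In STAT3KO T cells Prdx4 rose from 34.7 ± 0.393 CPM in CD4 to 53.4 ± 6.05 CPM in CD8 T cells (mean ± SD of 2 libraries), a log2 fold change of 0.62 (SE 0.14, adjusted p 0.0297 by edgeR), and it was the sole call among the 10 genes (12.5% of all genes passed). This call was lost without STAT3KO CD4 replicate 1, STAT3KO CD4 replicate 2, WT CD8 replicate 1, STAT3KO CD8 replicate 1 or STAT3KO CD8 replicate 2. For 7 of 10 genes the cell types did not overlap (58.3% of all genes). The log2 fold change was 0.42 for Txnrd1 (edgeR adjusted p 0.0558), -0.55 for Txnip (0.0738), 0.40 for Prdx1 (0.0847), 0.38 for Txn1 (0.140) and -0.28 for Prdx2 (0.270). With the block these 5 genes passed as well (edgeR adjusted p 0.00327 for Txnrd1, 0.0177 for Txnip, 0.0112 for Prdx1, 0.00625 for Txn1 and 0.0208 for Prdx2), beside 29.7% of all genes. DESeq2 called 4 of the 10 (15.9% of all genes), the fit of only the 4 STAT3KO libraries 3 (1676 of 11961 genes, or 14%), and the fits with total counts and without the filter 2 each (12.9% and 9.44%). The 2 comparisons between cell types share their libraries with those between genotypes.

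Txnip and Txn1, the inhibitor and its target, differed between the cell types in opposite directions, Txn1 passing the test in WT T cells and Txnip in neither genotype. The ratio of their RPKM was 2.60 and 2.36 in WT against 2.45 and 1.74 in STAT3KO libraries of the CD4 sort, and 1.09 and 1.33 in WT against 1.23 and 0.947 in STAT3KO libraries of the CD8 sort. Every CD4 library lay above every CD8 library. As with the ratio to Txnrd1, this is a description with no test.

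**Figure D4:**
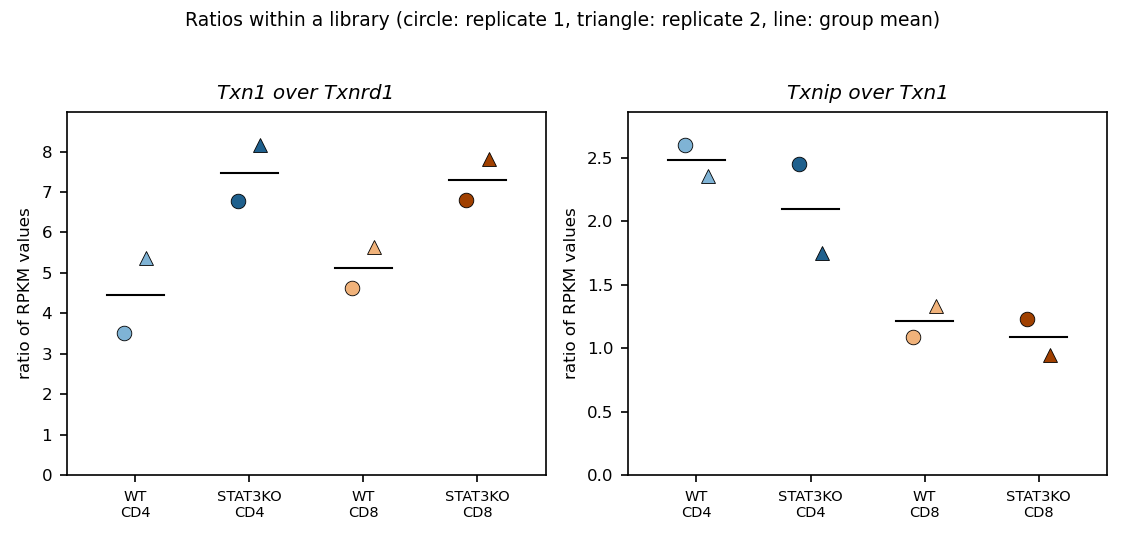
Ratios of RPKM values within a library (y axis, from 0) in the 4 groups (x axis), Txn1 over Txnrd1 on the left and Txnip over Txn1 on the right, with replicate 1 as a circle, replicate 2 as a triangle and the group mean as a line. The left ratio is 3.52 to 5.64 in WT and 6.77 to 8.18 in STAT3KO libraries, and the right ratio is 1.74 to 2.60 in CD4 and 0.947 to 1.33 in CD8 libraries.

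The replicate number moved some of these genes as much as the genotype did. Replicate 2 was the higher one in all 4 groups for Txn1, Txn2, Prdx2 and Prdx6 (20.0% of all genes) and the lower one in all 4 for Txnrd1 (22.6% of all genes). For Prdx6 the log2 difference of replicate 2 from replicate 1 was 0.45, 0.34, 0.34 and 0.34 in WT and STAT3KO CD4 and then in WT and STAT3KO CD8 T cells. Prdx2 stood 0.31, 0.25, 0.18 and 0.18 higher in the same order. For Txnip the sign depended on the genotype, at 0.23 and 0.39 in WT and -0.27 and -0.23 in STAT3KO T cells. The sum of the 5 macrophage and monocyte genes also lay higher in replicate 2 of every group. Of these genes, Cd68 was lower there in STAT3KO CD8 T cells. The sum of the 7 erythroid genes (2.73 to 7.43 CPM in replicate 2) and that of the neutrophil genes were likewise higher in replicate 2 of every group. The platelet and dendritic cell sums were not. The part of macrophages, red cells and neutrophils in the replicate differences, that of Prdx2 included, was not tested.

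Around these genes stand 58 others in 6 companion lists, of which 56 were tested (Mlxipl reached no more than 7 counts and Slc7a11 no more than 1 count in a library). In CD4 T cells 4 of the 56 rose and 4 fell with the loss of STAT3, or 14.3% beside 11.6% of all genes, and 8 and 8 did with the block (beside 30.1% of all genes). In CD8 T cells 2 rose and 1 fell, or 5.36% beside 2.07% of all genes, and 4 and 5 did with the block (beside 18.2% of all genes). None passed the test of the difference between the cell types without the block. Over the 56 genes the median log2 fold change was 0.07 (CD4) and -0.01 (CD8).

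The partners of thioredoxin and peroxiredoxin (13 tested) held 3 that fell and none that rose in CD4 T cells. Srxn1, sulfiredoxin, which repairs peroxiredoxins that peroxide has overoxidized, stood at 13.3 and 10.1 CPM in WT against 5.05 and 5.67 CPM in STAT3KO libraries of the CD4 sort. It fell by 1.12 on the log2 scale (SE 0.28, adjusted p 0.0418 by edgeR), a call that was lost without any one of the 4 CD4 libraries (adjusted p 0.0735 to 0.196). The CD8 libraries (WT, then STAT3KO) held 11.8 and 7.79 and then 3.76 and 5.59 CPM of Srxn1, a log2 fold change of -1.07 that did not pass (SE 0.28, adjusted p 0.0982 by edgeR). Sesn3 and Glrx5 were named after their values were seen. Sesn3, a sestrin that restrains growth signalling, fell from 155 and 165 CPM to 89.6 and 89.3 CPM in CD4 T cells (log2 fold change -0.84 with SE 0.10, adjusted p 0.00275 by edgeR). The remaining call was Glrx5, a mitochondrial glutaredoxin of iron-sulfur cluster assembly (log2 fold change -0.44 with SE 0.10, adjusted p 0.0282 by edgeR). It was lost without any one of the 4 CD4 libraries (0.0667 to 0.150) and with only these 4 (0.0833). None of the 13 passed in CD8 T cells. With the block Nxn and Sesn2 also passed in CD4 T cells, both higher in STAT3KO, and Srxn1, Sesn3 and Glrx5 passed in CD8 T cells, all lower in STAT3KO.

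Among 8 clients of thioredoxin, 2 rose and 1 fell in CD4 T cells. Map3k5 encodes ASK1, a kinase of the stress response that reduced thioredoxin holds inactive. The WT CD4 libraries held 183 and 211 CPM against 90.6 and 87.0 of their STAT3KO counterparts, and the WT CD8 libraries 63.3 and 73.8 against 38.5 and 43.8 CPM. The STAT3KO libraries were the lower ones in both cell types, and Map3k5 fell by 1.15 on the log2 scale in CD4 (SE 0.12, adjusted p 0.00217 by edgeR) and by 0.74 in CD8 T cells (SE 0.13, adjusted p 0.0337 by edgeR). The CD8 call was lost with only the 4 CD8 libraries (edgeR adjusted p 0.0839), with limma on log2(RPKM + 1) (0.0502) and without any one of the CD8 libraries or of the STAT3KO CD4 libraries (0.0740 to 0.229).

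The subunits of ribonucleotide reductase, which makes deoxynucleotides and is reduced by thioredoxin, accounted for 2 calls in CD4 and 1 call in CD8 T cells. Rrm2 rose from 57.9 and 43.6 CPM in WT CD4 to 111 and 108 CPM without STAT3 (log2 fold change 1.11 with SE 0.16, adjusted p 0.00593 by edgeR), and Rrm1, named after its value was seen, rose by 0.92 (SE 0.11, adjusted p 0.00306 by edgeR). In CD8 T cells their log2 fold changes were 0.37 and 0.18 (edgeR adjusted p 0.258 and 0.438). The difference between the cell types was -0.74 for each and did not pass the edgeR test (adjusted p 0.389 for Rrm2 and 0.207 for Rrm1), but passed with the block. Rrm2b, the subunit used outside S phase and in DNA repair, rose in CD8 T cells from 24.0 and 20.2 CPM to 34.8 and 38.0 CPM (log2 fold change 0.72 with SE 0.14, adjusted p 0.0456 by edgeR), a call lost without any one of the 8 libraries, with only the 4 CD8 libraries and with limma on RPKM.

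Of 15 thioredoxin-fold proteins of the endoplasmic reticulum and membranes, 1 rose in each cell type and none fell. Txndc5, a disulfide isomerase, rose from 102 and 111 CPM to 159 and 164 CPM in CD4 T cells (log2 fold change 0.60 with SE 0.11, adjusted p 0.0145 by edgeR), and Tmx3, a transmembrane member, rose from 125 and 110.4 CPM to 176 and 198 CPM in CD8 T cells (log2 fold change 0.67 with SE 0.11, adjusted p 0.0316 by edgeR). The first was lost without any one of the 4 CD4 libraries and the second without any one of the 4 CD8 libraries, STAT3KO CD4 replicate 1 or STAT3KO CD4 replicate 2, and with only the 4 CD8 libraries. With the block Pdia4 also passed as higher and Tmx4 as lower in STAT3KO CD4, and Tmx1 and Txndc16 as higher in STAT3KO CD8 T cells. Of 5 other enzymes against peroxide and superoxide, catalase (Cat) rose in CD4 T cells from 119 and 105 CPM to 157 and 156 CPM (log2 fold change 0.48 with SE 0.10, adjusted p 0.0195 by edgeR), a call lost without WT CD4 replicate 2, STAT3KO CD4 replicate 1 or STAT3KO CD4 replicate 2, and with only the 4 CD4 libraries. With the block, Sod2 and Gpx1 also passed there, lower in STAT3KO. None of the 9 genes of the NRF2 axis, which runs the antioxidant response, and none of 6 arrestin-domain and MondoA genes passed in either cell type (with the block, G6pdx and Nfe2l2 in CD4 and Arrdc4 in CD8 T cells).

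**Figure D5:**
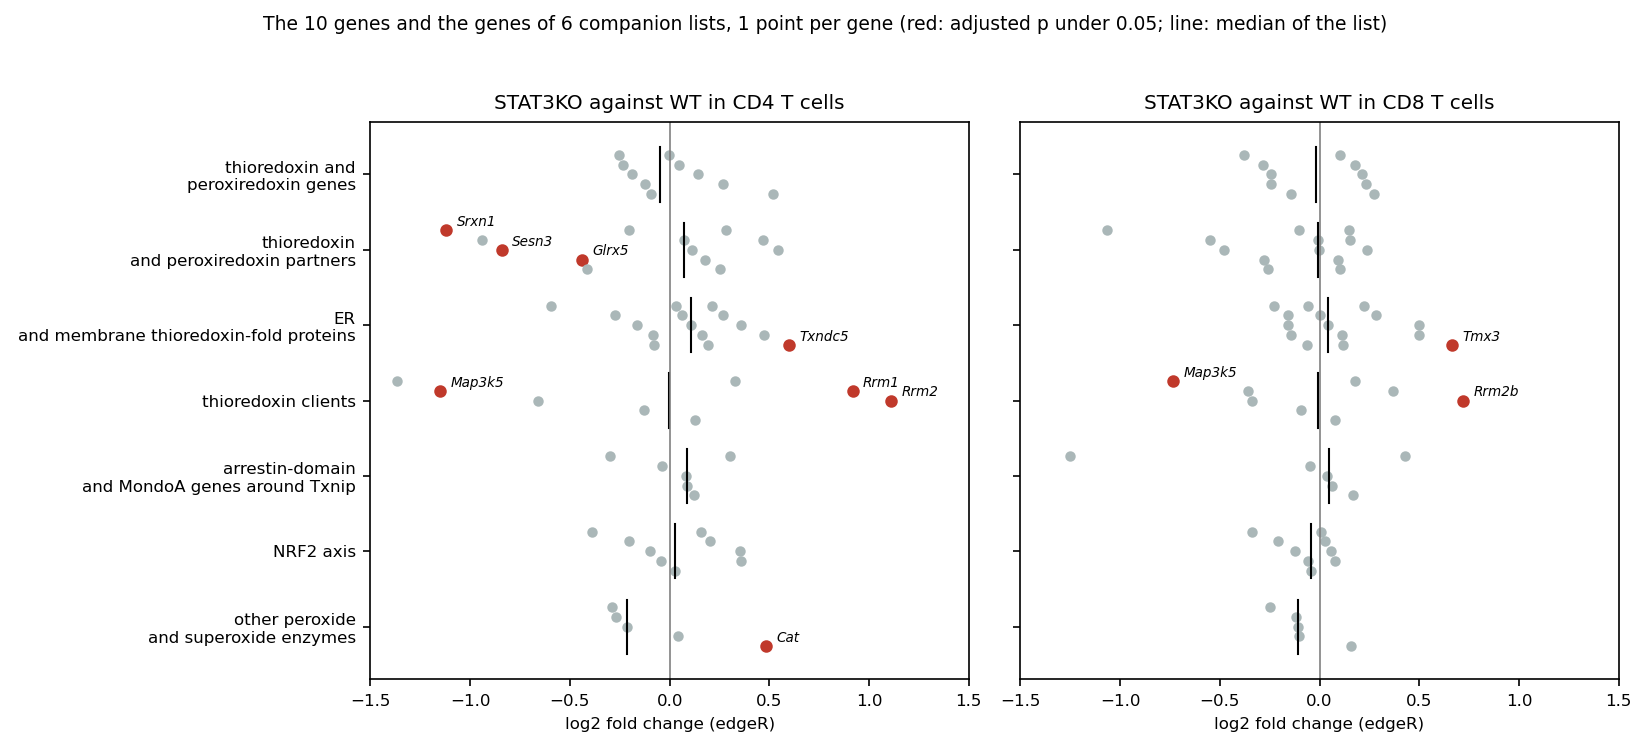
Log2 fold changes of STAT3KO against WT (x axis) of the 10 genes and of the tested genes of 6 companion lists (y axis), in CD4 (left) and CD8 T cells (right), 1 point per gene, with the median of a list as a line. Red points with names passed the edgeR test, 8 genes in CD4 and 3 in CD8 T cells.

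Between the cell types of WT donors, 7 of the 56 companion genes were higher and 3 lower in CD8 than in CD4 T cells (17.9% beside 23.8% of all genes), or 12 and 8 with the block (beside 42.1% of all genes). The largest changes were in clients, Rrm2 at 1.61 (SE 0.16, adjusted p 0.000525 by edgeR) and Map3k5 at -1.52 (SE 0.13, adjusted p 0.000247 by edgeR), and in the partner Sesn3 at -1.82 on the log2 scale (SE 0.10, adjusted p 9.2e-05 by edgeR). In STAT3KO T cells 4 were higher and 3 lower (12.5% beside 12.5% of all genes), or 8 and 7 with the block (beside 29.7% of all genes).

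The genes whose levels followed Txn1 most closely over the 8 libraries, among 8844 whose log2 CPM averaged at least 3, were Hp1bp3 (r = 0.989), Paics (r = 0.988) and Mtmr1 (r = 0.987). Hp1bp3 encodes a chromatin protein, Paics an enzyme of purine synthesis and Mtmr1 a lipid phosphatase. Paics was at 171 and 202 CPM in WT against 237 and 268 in STAT3KO libraries of the CD4 sort, and 265 and 263 in WT against 318 and 351 in STAT3KO libraries of the CD8 sort. These libraries share their groups and replicate numbers, so r (Pearson, on log2 CPM) describes how the levels moved together over these libraries and carries no p.

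All 10 genes are protein coding in GENCODE M21, and values cover their exons. The strand setting of the counting was not given in the sources used here. Exons of Txnip share 606 bases (19.4%) with the antisense gene Gm15441, and those of Prdx5 share 409 bases (19.1%) with Trmt112 on the opposite strand. Prdx2 shares 5.67% of its exon bases with Junb and 5.80% with Rnaseh2a on the opposite strand. Windows of 51 bases in the transcripts were also looked up in other genes, pseudogenes among them. The share found there was 15.6% for Txnip, 15.5% for Prdx5, 11.9% for Prdx2 and 8.58% for Prdx1. It was 2.40% for Txn1, 0.885% for Txn2 and 0.0972% for Prdx6, while Txnrd1, Prdx3 and Prdx4 had none. These shares are of GENCODE exons or transcripts, while the counts cover RefSeq exons (for Prdx2, 3050 bases in GENCODE against 1553 in the deposited values). The shares do not measure how uncertain the counts of Txnip, Prdx1, Prdx2 and Prdx5 are, and this was not tested.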

How the data were processed

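The series holds 8 libraries of splenic donor T cells, 2 for each of the 4 groups, and the groups and replicate numbers were taken from the labels. Per the labels and the study's methods, the authors aligned single-end reads to mm10 (GRCm38) with STAR, counted them per RefSeq gene and deposited raw counts and RPKM values (reads per kilobase of exon, scaled to library size). The labels and the methods name different library kits, and the labels' growth and treatment text describes another experiment and was not used. The counts were analysed as deposited. filterByExpr (minimum count 10) left 12428 of 25078 genes, counts were scaled by TMM (0.982 to 1.03), and one mean per group was fitted over all 8 libraries with edgeR 4.0.16 (R 4.3.3). A gene was called where the quasi-likelihood test gave a Benjamini-Hochberg adjusted p under 0.05 over all genes tested (two-sided), for STAT3KO against WT in CD4 and CD8 T cells, for the difference of these effects and for CD8 against CD4 in each genotype. SEs were derived from the F statistic. Values per library are TMM-scaled CPM, except the sums over marker lists (T cells included) and the marker genes of other cells, which are CPM by column total. RPKM values were used for levels between genes and for ratios. The code was tested on simulated counts.

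Replicate numbers come from the titles, which do not say that a number marks a batch. The leading numbers in the titles of all replicate 1 libraries lie below those of all replicate 2 libraries. What these leading numbers mark is not stated. Deviations of same-numbered libraries from their group means correlated in every pair of groups (0.424 to 0.671 over 12428 genes), so a fit with the replicate number as a block was also made. With 2 libraries in a group, these 2 deviations mirror each other. Each pair of replicates differed by more than counting noise. The labels do not say that replicates came from separate experiments, so p-values measure only the spread between these pools, and 20171396 to 23282757 counts per library limit their counting error.

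The genes and lists were chosen with earlier results of these data known. The genes named are the 10 members, Stat3, in each companion list the called gene with the largest rise and fall in each STAT3KO comparison, and the 3 genes most like Txn1. Sesn3, Glrx5, Rrm1, single marker genes and the genes called only with the block were named beyond this rule, after their values were seen. Companion lists were written from general knowledge. One further marker list is not reported here. Alternatives were DESeq2 1.42.0, RLE size factors, total counts, no filter, the replicate block, fits of only the 4 libraries compared, limma 3.58.1 on log2(RPKM + 1) and log2(RPKM + 0.1), and leaving out each library in turn. Promoters were read from RefSeq (GRCm38.p6), and no protein sequences were used here.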

Additional observations from a re-analysis of the deposited data

How the results depend on the processing

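The 2 replicates per group limit every value here, and the fit over 8 libraries lends each group the spread of the others. The number of the 10 genes called was 0 in both STAT3KO comparisons (11.6% of all genes in CD4 and 2.07% in CD8 T cells). In CD4 T cells it was 1 with DESeq2 (14.7% of all genes) and 3 with the replicate block (30.1%). In CD8 T cells it was 3 with the replicate block (18.2% of all genes). For CD8 against CD4 in WT T cells (3 called) it was 0 with only the 4 libraries compared, and in STAT3KO T cells (1 called) it was 4 with DESeq2, 2 with total counts, 2 without the filter, 6 with the replicate block and 3 with only the 4 libraries. Leaving out a library in turn gave 0 to 1 in STAT3KO CD4, 0 to 2 for the WT and 0 to 1 for the STAT3KO cell types. The share of all genes called without a library is not given here, so these counts have no background beside them. The replicate block changed no call of the 10 genes beyond those given. The cause of these shifts was not tested, apart from the fewer libraries of some fits.

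Without one library in turn, log2 fold changes near 0 that had not passed crossed 0. For STAT3KO against WT they were Prdx1 (-0.15 to 0.12), Prdx2 (-0.27 to 0.060), Prdx3 (-0.073 to 0.14) and Prdx4 (-0.050 to 0.32) in CD4 and Txnip (-0.088 to 0.30) in CD8 T cells, and for the difference of the effects Txn2 (-0.22 to 0.045), Txnrd1 (-0.11 to 0.13), Txnip (-0.33 to 0.044), Prdx2 (-0.30 to 0.0093), Prdx4 (-0.091 to 0.27), Prdx5 (-0.12 to 0.096) and Prdx6 (-0.38 to 0.075). Between the cell types they were Prdx2 (-0.30 to 0.012), Prdx3 (-0.12 to 0.074), Prdx5 (-0.047 to 0.16) and Prdx6 (-0.037 to 0.41) in WT and Prdx5 (-0.067 to 0.15) and Prdx6 (-0.14 to 0.20) in STAT3KO T cells. Txnrd1 (difference of effects) also crossed 0 with total counts (-0.0017), Prdx5 (difference of effects) without the filter (0.0014) and Prdx3 (cell types in WT) with only the 4 libraries (0.0049).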
